A study of Mus musculus with 2 samples.

Results

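The miR-99/100 and miR-125 microRNAs of the mouse lie in 3 paralogous clusters on chromosomes 16, 9 and 17, and their levels were measured here in fetal liver. The members are 7 genes of the 1973 in each count table, chosen by their names as Mir99a, Mir99b, Mir100, Mir125a, Mir125b-1, Mir125b-2 and Gm25927. Gm25927 is annotated on the minus strand across Mirlet7e, so its opposite-strand reads were taken as the let-7e reads. All 7 members had at least 10 counts in each library and passed the filter on low values.

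MicroRNA sequencing was done on whole liver of embryos of strain B6NCrl at embryonic day 14.5, with no treatment or genetic change named in the labels, in libraries of RNAs under 30 nucleotides. There was 1 group of 2 libraries, replicate 1 and replicate 2, so the only comparison is between these livers. The labels call each sample the liver of a single pup, collected on separate days, yet give pooled sexes and a shared donor ID, so their independence is uncertain. Levels are CPM, counts scaled to the library totals of 2353946 and 3132763 same-strand gene counts in replicates 1 and 2. Errors given with ± are SDs of the 2 livers (n = 2).

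A microRNA pairs with messenger RNAs through its seed, bases 2 to 8 from its 5′ end, and lowers the output of those messages. The miR-99/100 microRNAs are known to target Mtor and Igf1r, genes of growth signalling. The miR-125 microRNAs are the vertebrate relatives of worm lin-4, a timer of larval development, and miR-125a and miR-125b are known in mouse blood stem cells, where extra copies expand the stem cell pool. The let-7 microRNAs, which sit between the other members in each cluster, promote differentiation and are held back by the LIN28 proteins in fetal tissue. At this stage the liver is the main site of blood formation.

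The mature sequences are shown first because they set the families and decide which reads can be assigned to a single gene. They are from RefSeq on build GRCm38.p6, with the seed in capitals, and each is printed as the strand of its own gene. Of the 7 members, 6 had an entry of their own, and for Gm25927 the Mirlet7e entry was used.
miR-99a-5p: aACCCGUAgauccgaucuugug
miR-100-5p: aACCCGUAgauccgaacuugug
miR-99b-5p: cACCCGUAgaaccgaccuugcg
miR-125b-5p: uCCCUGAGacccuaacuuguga
miR-125a-5p: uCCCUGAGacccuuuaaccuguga
let-7e-5p: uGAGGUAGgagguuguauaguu

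These 6 sequences carry 3 seeds. The seed of miR-99a, miR-99b and miR-100 is found in these 3 of the 1679 mature microRNAs of the table and in no other. That of miR-125a and miR-125b is found in 5, the others being miR-351-5p, miR-6367 and miR-6394. The let-7e seed is found in 11. Counting from 1 at the 5′ end, miR-99a-5p and miR-100-5p differ by a single substitution, U16A, outside the seed, and share their first 15 bases. From miR-99a-5p to miR-99b-5p there are 4 substitutions, A1C, U11A, U16C and U21C. The 5p arms of miR-125a and miR-125b share their first 13 bases and differ in length, with 24 and 22 bases.

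The 5p arm of miR-125b is identical at Mir125b-1 and Mir125b-2, whereas their 3p arms differ at 5 positions. Those arms are printed next because they are the mature sequences that tell the pair apart, with the differing bases in capitals. Reads that mapped to more than 1 place, 34.0% of all reads in replicate 1 and 33.1% in replicate 2, are in no gene count. The counts of Mir125b-1 and Mir125b-2 are therefore lower limits, and so is the sum of the miR-125 family. The tables do not split a gene's counts by arm.
miR-125b-1-3p: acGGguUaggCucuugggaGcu
miR-125b-2-3p: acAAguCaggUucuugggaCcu

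**Figure D1:**
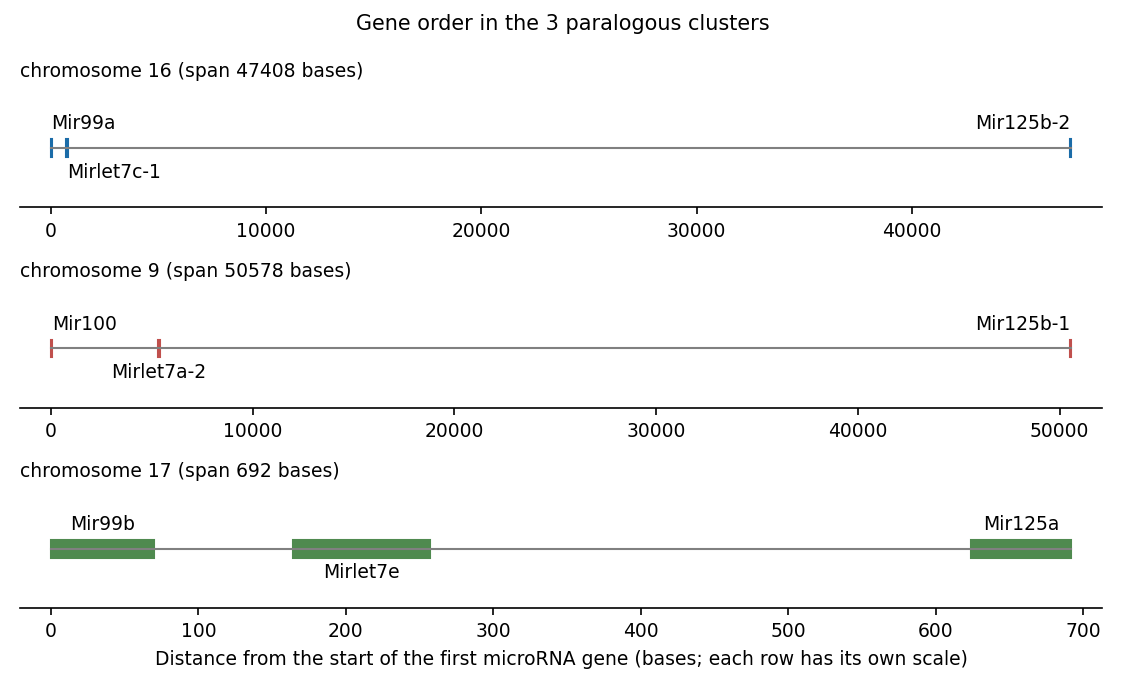
Position of the microRNA genes in each cluster, drawn to scale within a row, as distance in bases from the start of the first gene. The chromosome 17 cluster spans 692 bases, against 47408 on chromosome 16 and 50578 on chromosome 9, and the gene order is the same in all 3.

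The clusters have the same order, a miR-99/100 gene, a let-7 gene and a miR-125 gene, all on the plus strand of GRCm38. On chromosome 16, Mir99a (77598936 to 77599000), Mirlet7c-1 (77599657 to 77599750) and Mir125b-2 (77646273 to 77646343) lie within the long noncoding host gene Mir99ahg, and Mir125b-2 also touches an exon of C130023A14Rik. On chromosome 9, Mir100 (41531425 to 41531504), Mirlet7a-2 (41536716 to 41536811) and Mir125b-1 (41581926 to 41582002) lie within the noncoding genes 3110039I08Rik and Gm49317, and Mir125b-1 in an exon of Gm28119. On chromosome 17, Mir99b (17830188 to 17830257), Mirlet7e (17830352 to 17830444) and Mir125a (17830812 to 17830879) lie within Spaca6, a protein-coding gene known for its part in sperm-egg fusion, and Mir125a overlaps one of its exons. The cluster map shows how much more compact this cluster is. Gm25927 runs from 17830343 to 17830459 on the minus strand and spans Mirlet7e. It had 0 counts on its own strand in each library, and 3767 and 5532 on the opposite strand in replicates 1 and 2. The other 6 members had 0 opposite-strand counts in each library, which allows up to 3 counts, or 1.27 and 0.958 CPM in replicates 1 and 2.

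Within each cluster the miR-99/100 gene had the most reads that map to 1 place. Mir99a had 18119 and 14326 CPM in replicates 1 and 2, and ranked 19 among all genes by its mean. Mir99b had 6233 and 6234 CPM in replicates 1 and 2, at rank 39. Mir100 had 1816 and 1076 CPM, at rank 85. No 2 of these genes overlapped in level across the livers. Mir99a was 2.91 times Mir99b by counts in replicate 1 and 2.30 times in replicate 2, and 9.98 and 13.3 times Mir100. MiR-99a and miR-100 differ by 1 base, and the sources used here do not give the mismatches allowed in alignment. How many reads of the more abundant Mir99a were counted at Mir100 was not tested.

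Among reads that map to 1 place, the miR-125 genes had fewer counts than the miR-99/100 gene of the same cluster. For Mir125b-2 and Mir125b-1, whose counts are lower limits, this does not rank the mature microRNAs. Mir125a had 918 and 961 CPM in replicates 1 and 2, at rank 98. Mir125b-2 had 215 and 160 CPM in replicates 1 and 2, and Mir125b-1 had 93.5 and 84.0 CPM. Of the family's counts, Mir125a held 74.8% in replicate 1 and 79.8% in replicate 2 (95% Clopper-Pearson intervals 73.2 to 76.4 and 78.4 to 81.0). Since the 5p arm shared by the Mir125b genes is left out of their counts, these shares say nothing of the relative amounts of mature miR-125a and miR-125b. Mirlet7e, read as Gm25927, had 1600 and 1766 CPM in replicates 1 and 2, at rank 78. Let-7e-5p differs from let-7a-5p by a single substitution, U9G from let-7a-5p to let-7e-5p. How many reads of other let-7 genes were counted at Mirlet7e was not tested.

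**Figure D2:**
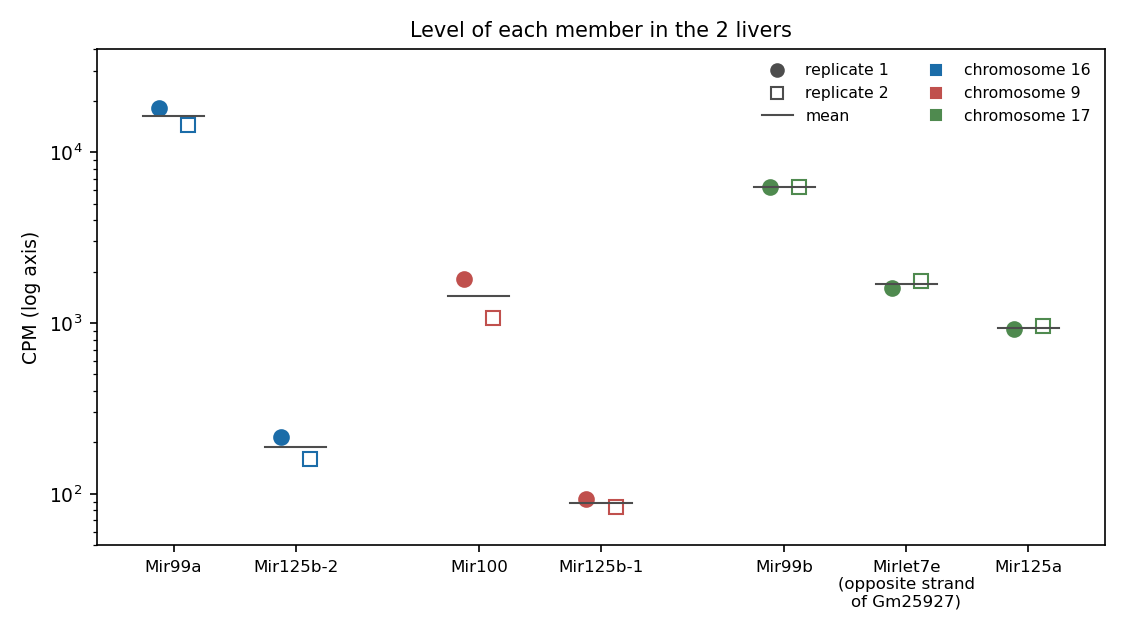
CPM of each member on a log axis, with replicate 1 as filled circles, replicate 2 as open squares and the mean as a line, coloured by cluster. Mir99a sits highest with 18119 and 14326 CPM, and the chromosome 17 members have nearly equal values in the livers.

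By mean level the order was Mir99a (16222 ± 2682 CPM), Mir99b (6234 ± 0.305 CPM), Mirlet7e (1683 ± 117.1 CPM), Mir100 (1446 ± 523.0 CPM), Mir125a (939.2 ± 30.6 CPM), Mir125b-2 (187.4 ± 38.9 CPM) and Mir125b-1 (88.7 ± 6.72 CPM). The ranges of Mirlet7e and Mir100 overlapped, so these neighbours were not separated. The other 5 neighbouring pairs did not overlap, with the narrowest gap between Mir100 and Mir125a, where the lower Mir100 value was 1.12 times the higher Mir125a value. Per kilobase of annotated gene, a scale that allows for gene length, Mir100 stood before Gm25927, with 18073 and 14385 CPM per kilobase. The value of Gm25927 uses its own length of 117 bases. Its reads are taken as those of Mirlet7e, which is 93 bases long, a length that gives a higher value. The place of these reads against Mir100 on this scale therefore depends on the length used. The other 5 members kept their places on that scale. Of the members, 6 of 7 lay above the median level of the 333 features tested, which was 174.1 CPM. The members' own median was 1446 CPM.

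The chromosome 16 cluster held the most counts. Its members came to 18333 and 14486 CPM in replicates 1 and 2, those of chromosome 17 to 8751 and 8960 CPM, and those of chromosome 9 to 1909 and 1160 CPM. These sums did not overlap, but those of chromosomes 16 and 9 are lower limits because of their Mir125b genes, and only that of chromosome 17 includes a let-7 gene, so the order holds for reads that map to 1 place. Of the members' counts, the chromosome 16 cluster took 63.2% in replicate 1 (62.9 to 63.6, Clopper-Pearson 95% interval), against 58.9% (58.5 to 59.2) in replicate 2. The chromosome 17 cluster took 30.2% in replicate 1 (29.8 to 30.5) and 36.4% in replicate 2 (36.1 to 36.8). Chromosome 9 took 6.58% and 4.71%. The members' counts came to 2.90% and 2.46% of the same-strand totals of replicates 1 and 2, which do not themselves contain the opposite-strand reads counted for Gm25927. Intervals here and below are for counting error alone, as PCR copies of a molecule are counted as separate reads.

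The makeup of the clusters differed. Mir99a made up 98.8% of the counted members on chromosome 16 in replicate 1 and 98.9% in replicate 2. Mir100 made up 95.1% on chromosome 9 in replicate 1 (94.4 to 95.7) and 92.8% in replicate 2 (91.9 to 93.6). On chromosome 17 the counts were spread further. Mir99b held 71.2% of that cluster in replicate 1 and 69.6% in replicate 2, Mirlet7e held 18.3% and 19.7%, and Mir125a held 10.5% and 10.7%. In counts, the miR-99/100 gene exceeded the miR-125 gene 84.3 and 89.6 times on chromosome 16, 19.4 and 12.8 times on chromosome 9, and 6.79 and 6.49 times on chromosome 17, in replicates 1 and 2. The first 2 of these quotients are upper limits, since they divide by Mir125b counts. By family, the miR-99/100 genes reached 26168 and 21636 CPM in replicates 1 and 2, and the miR-125 genes 1226 and 1205 CPM.

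Between the livers, 3 of the 4 members of the chromosome 16 and 9 clusters passed the test as higher in replicate 1, where 18.3% of all features did. On chromosome 17 only Mirlet7e passed, as lower in replicate 1, where 23.7% of all features did. This test calls smaller differences at higher counts, and 6 of the 7 members lay above the median level of the features. The shares of called features, here and below, are not matched for depth, so a higher share among the members is not a result in itself. The fold ratio, replicate 1 over replicate 2, was 1.69 for Mir100 (1.61 to 1.77, exact 95% interval), 1.34 for Mir125b-2 (1.19 to 1.52) and 1.26 for Mir99a (1.25 to 1.28). Mirlet7e was lower in replicate 1, at 0.906 of its replicate 2 level (0.869 to 0.945). By a two-sided exact binomial test on all 333 features with Benjamini-Hochberg adjustment at 0.05, the adjusted p was 1.05e-113 for Mir100, 1.33e-05 for Mir125b-2, 2.28e-261 for Mir99a and 1.46e-05 for Mirlet7e. The ratio of Mir125b-1 was 1.11 (0.926 to 1.34, exact adjusted p = 0.386), that of Mir125a 0.955 (0.903 to 1.01, exact adjusted p = 0.194) and that of Mir99b 1.00 (0.979 to 1.02, exact adjusted p = 1).

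In all, 4 of the 7 members were called different, where 42.0% of the 333 features were. Of these, 3 were higher in replicate 1, against 18.3% of all features, and 1 was higher in replicate 2, against 23.7%. A share of this size was common among the features, so the count of members called is not a result in itself. As log2 ratios of replicate 1 over replicate 2, the members had a median of 0.16, beside -0.03 over all features. Their median absolute log2 ratio was 0.16, and so was that of all features. A log2 ratio at least as far from 0 as that of Mir100 (0.75) was seen in 9.31% of features, as that of Mir125b-2 (0.43) in 18.0%, as that of Mir99a (0.34) in 24.9% and as that of Mirlet7e (-0.14) in 55.0%. The test compares these libraries and not conditions. With TMM scaling 39.6% of features were called and with DESeq2 size factors 39.9%, and 4 members were called under each of these scalings.

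**Figure D3:**
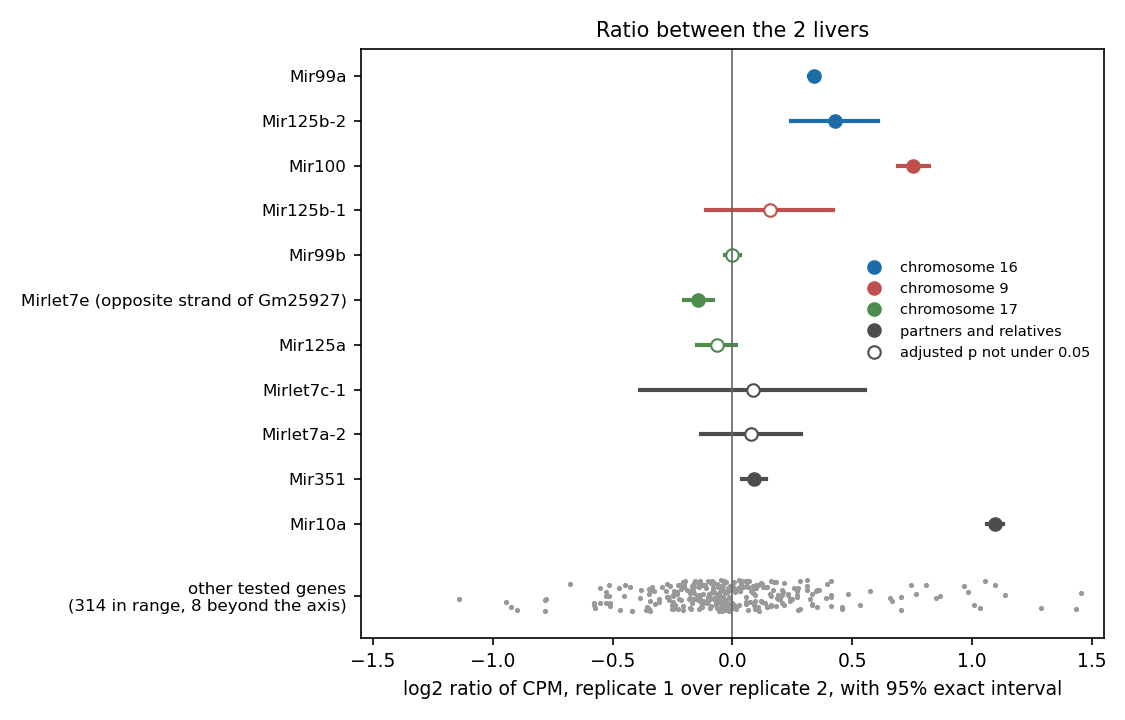
Log2 ratio of CPM, replicate 1 over replicate 2, with 95% exact intervals for the members, their let-7 partners and the relatives Mir351 and Mir10a, above the other tested features as grey points (314 in range, 8 beyond the axis, Mir10b among them). Filled circles have an adjusted p under 0.05. The chromosome 16 and 9 members lie right of 0 and the chromosome 17 members at 0 or left of it.

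Ratios between members of the same library need no scaling to a total, so the clusters were also compared within each liver. Of the 21 pairs of members, 14 had a ratio that differed between the livers by a two-sided exact Fisher test with adjustment over the 21 pairs. With adjustment over all 55278 pairs of the 333 features, 13 of the 21 passed, where 29.6% of all pairs did. Among the 191 features with counts at least those of the lowest member in each library (220 and 263 in replicates 1 and 2), 49.0% of pairs passed, so differing pairs were common at this depth and the count of member pairs is not a result in itself. Of the 12 pairs that set a chromosome 16 or 9 member against a chromosome 17 member, 10 differed, and in all 10 the chromosome 17 member was relatively lower in replicate 1. With adjustment over all feature pairs 9 of these 12 passed, beside the 49.0% above. The 2 that did not differ among the 12 were Mir125b-1 against Mir99b and against Mir125a. The largest quotient was that of Mir100 over Mirlet7e, which was 1.13 in replicate 1 and 0.609 in replicate 2, a 1.86-fold difference (95% exact interval 1.75 to 1.98, adjusted Fisher p = 6.17e-88). These pairs share members and are not independent of each other. They use the same counts as the tests of single genes. Their directions follow from the ratios of those genes and are no further support for a difference between the clusters.

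Paralogs of the same family differed between the livers as well. Mir100 over Mir99b was 0.291 in replicate 1 and 0.173 in replicate 2, a quotient of 1.69 (1.60 to 1.77, exact adjusted p = 5.65e-93). Mir99a over Mir100 was 9.98 in replicate 1 and 13.3 in replicate 2, a quotient of 0.750 (0.715 to 0.786, exact adjusted p = 7.80e-33). Mir100 and Mir99a were both higher in replicate 1, and the difference was larger for Mir100. Mir125b-2 over Mir125b-1 was 2.30 and 1.90 in replicates 1 and 2, and this difference did not pass the test (quotient 1.21, 0.966 to 1.51, exact adjusted p = 0.135). As cluster sums, chromosome 9 over chromosome 17 was 0.218 in replicate 1 and 0.129 in replicate 2, a quotient of 1.69 (1.61 to 1.77), and chromosome 16 over chromosome 17 was 2.09 and 1.62, a quotient of 1.30 (1.27 to 1.33).

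Within clusters, 2 of 5 pairs differed, under either adjustment, a share near that of feature pairs of such depth. On chromosome 16, Mir99a over Mir125b-2 had a quotient of 0.941 between the livers (0.829 to 1.07, exact adjusted p = 0.342). On chromosome 9, Mir100 over Mir125b-1 was 19.4 in replicate 1 and 12.8 in replicate 2 (quotient 1.52, 1.25 to 1.83, exact adjusted p = 2.07e-05). The ratio of these genes of a shared host thus differed between the livers in reads that map to 1 place. On chromosome 17, Mir99b over Mirlet7e was 3.90 and 3.53 in replicates 1 and 2 (quotient 1.10, 1.05 to 1.16, exact adjusted p = 6.03e-05). Mir125a against Mir99b and against Mirlet7e did not pass, with quotients of 1.05 (0.986 to 1.11) for Mir99b over Mir125a and 0.949 (0.885 to 1.02) for Mirlet7e over Mir125a. An interval that holds 1 does not show that the genes moved alike.

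**Figure D4:**
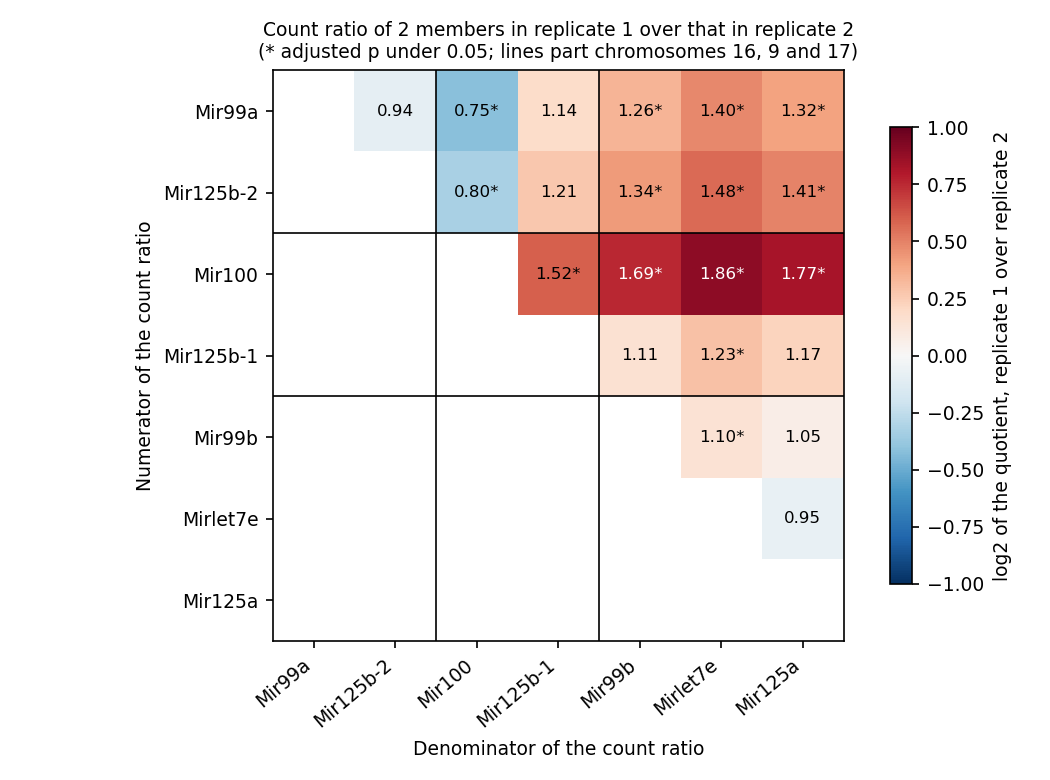
For each pair of members, the count ratio of the row gene over the column gene in replicate 1, divided by that in replicate 2, on a log2 colour scale, with asterisks where the adjusted Fisher p is under 0.05. The block that sets the chromosome 16 and 9 genes against the chromosome 17 genes holds values above 1, up to 1.86 for Mir100 over Mirlet7e.

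The let-7 partners of the chromosome 16 and 9 clusters have counts that are lower limits too, and they are not ranked against Mirlet7e. Mirlet7c-1 had 30.2 and 28.4 CPM in replicates 1 and 2, and Mirlet7a-2 had 144.4 and 136.9 CPM. Neither passed the test between the livers (exact adjusted p = 0.850 and 0.619). The mature let-7c-5p of Mirlet7c-1 is identical at Mirlet7c-2, and let-7a-5p, listed at Mirlet7a-1, is also contained in the hairpin of Mirlet7a-2.

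The relatives by sequence were Mir351, which shares the miR-125 seed, and Mir10a and Mir10b, whose seed shares its first 4 bases with that of miR-99/100. Their 5p arms are shown for comparison, with the seed in capitals.
miR-351-5p: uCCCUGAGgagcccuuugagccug
miR-10a-5p: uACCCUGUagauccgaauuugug
miR-10b-5p: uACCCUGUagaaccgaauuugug

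Mir351 had 2503 and 2353 CPM in replicates 1 and 2, above the summed counts of the miR-125 family from reads that map to 1 place. Mir10a and Mir10b, which lie in Hox gene clusters, had 7584 and 6365 CPM in replicate 1, against 3549 and 582.9 CPM in replicate 2. All 3 relatives were higher in replicate 1 by the exact binomial test, as 18.3% of all features were. The fold ratios were 1.06 (1.03 to 1.10) for Mir351, 2.14 (2.09 to 2.19) for Mir10a and 10.9 (10.4 to 11.5) for Mir10b, and those of the Mir10 genes were larger than that of any member. A ratio at least as far from 1 as that of Mir351 was seen in 69.1% of features. The longest stretch that miR-10a-5p shares with miR-99a-5p is 10 bases.

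Marker levels of the cell types that a liver library can hold also differed between the livers. The hepatocyte list, which has Mir122 as its defining gene, came to 105667 and 119139 CPM in replicates 1 and 2. Of its 5 genes 3 were called, all lower in replicate 1. Over all features, 23.7% were called lower in replicate 1 and 18.3% higher, so calls were common. Mir122 was the highest gene of each library. The red cell genes Mir451a and Mir144 came to 49613 and 39515 CPM in replicates 1 and 2, a ratio of 1.26 (1.25 to 1.27), and both were called higher in replicate 1. Mir486, a further red cell microRNA whose name in the tables differs from that in the list, was added after its values were seen. It went the other way, with 404.9 and 515.5 CPM in replicates 1 and 2 (ratio 0.785, 0.724 to 0.851), so the red cell genes did not move as one. The endothelial marker Mir126a had 61517 and 57654 CPM in replicates 1 and 2, and was called higher in replicate 1.

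The white cell list came to 10601 and 10015 CPM in replicates 1 and 2, nearly all of it Mir223, which was called higher in replicate 1. Mir155 of that list was called lower there, with 77.7 and 104.1 CPM. The mesenchymal list came to 17964 and 17088 CPM in replicates 1 and 2. Among reads that map to 1 place nearly all of it was Mir143, which was called higher in replicate 1. Mir214 of that list was called lower there, with 873.0 and 1176 CPM. The neural list came to 630.0 and 287.3 CPM in replicates 1 and 2. Of its 13 measured genes 6 passed the count minimum. Of those, 4 were called, all higher in replicate 1, as 18.3% of all features were. Mir137 had 570 and 70 counts in replicates 1 and 2, a fold ratio of 10.8 (8.44 to 14.1). Mir219a-2 had 127 and 11 counts, a fold ratio of 15.4 (8.30 to 31.6). The fold ratios of Mir128-2 and Mir132 were smaller, at 1.59 (1.13 to 2.23) and 1.28 (1.06 to 1.53). Mir128-1 and Mir219a-1 were not called. Among the defining genes of the neural list, Mir9-3 had 38 and 2 counts in replicates 1 and 2, and Mir124a-1 had 0 and 1. Mir9-2, Mir124a-2 and Mir124a-3 had none in either library. The muscle list came to 312.2 and 278.0 CPM in replicates 1 and 2, with Mir1a-1, Mir133a-1 and Mir133a-2 at 0 in each library. The counts of these defining neural genes and of these muscle genes too are lower limits and do not show absence. Those of Mir199a-1 and Mir199a-2 of the mesenchymal list are lower limits as well. Of the 8 measured muscle genes 3 passed the count minimum and 1, Mir206, was called, higher in replicate 1. The part of these cell types in the members' ratios was not tested. In whole tissue, fewer cells of a type and less RNA per cell cannot be told apart.

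For each member the non-member with the nearest level in both livers was found among 326 genes, by Euclidean distance in log2(CPM + 1) over the 2 libraries. Mirlet7e lay nearest to Mir429, a member of the epithelial miR-200 family, with 1596 and 1747 CPM in replicates 1 and 2 at a distance of 0.016. Mir125a lay nearest to Mir375, a microRNA of pancreatic islets, with 923.1 and 973.3 CPM at 0.020. Mir125b-1 lay nearest to Mir96 at 0.085, Mir99b to Mir15b at 0.11, Mir125b-2 to Mir33 at 0.14 and Mir99a to Mir143 at 0.17. Mir100 had no close neighbour, as the nearest gene, Mir342, lay at 0.51 with 1404 and 1378 CPM. A distance over 2 libraries describes a level and a ratio only.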

How the data were processed

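Small RNA from whole fetal liver was sequenced as 2 libraries of 1 group. The authors deposited unnormalized read counts for each microRNA gene, in 1 table per library. Per notes deposited beside the tables, each derives from its own alignment to mm10 with annotation M4. The sources used here do not give the aligner, the counter or their settings. Rows that name no gene (63.2% and 61.2% of reads in replicates 1 and 2: unmapped, mapped to more than 1 place, or in no gene on the same strand) were left out of the totals. Of 1973 IDs, 1894 matched GENCODE M21 (GRCm38).

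The same-strand counts of all genes, and the opposite-strand counts of Gm25927, were compared between the libraries by an exact binomial test given the library totals (scipy 1.17.1), with Benjamini-Hochberg adjustment over the 333 features with at least 10 counts in each library. Log2 ratios are replicate 1 over replicate 2 with 0.5 added to each count, and fold ratios carry no pseudocount. With 1 group no edgeR contrast exists, and edgeR 4.0.16 (TMM) and DESeq2 1.42.0 gave scaling factors only. Pair ratios were compared by Fisher's exact test with conditional exact intervals. The same test on every pair of the features, added after the member pairs were seen, gave the share of all pairs called. The steps were tested on simulated counts with counting error alone. Such counts hold no spread between animals and no PCR copies, so they check the computation only. The p-values measure counting differences between these libraries. The members, lists and rules were chosen with earlier results of these data known. Genes named are the members, their let-7 partners, Mir10a, Mir10b and Mir351, the nearest gene of each member, and cell type markers. Alternatives tried were minimums of 1, 100 or no counts, TMM and DESeq2 scaling, counts regardless of strand, pseudocounts of 0.1 and 10, totals without Mir122, added let-7 partners, level per kilobase, and each library alone.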

Additional observations from a re-analysis of the deposited data

How the results depend on the processing

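The number of members called (4) and the direction and call of 6 members were the same under every alternative run. The number of member pairs called (14) was the same with counts regardless of strand and with a minimum of 100 counts, and was 13 with adjustment over all feature pairs, an alternative chosen after seeing the data. The ratio of Mir99b lay too close to 1 to have a direction. Its log2 ratio of -8.8e-05 became 0.024 with TMM scaling, 0.021 with DESeq2 size factors, 0.010 with counts regardless of strand and 0.00014 with a pseudocount of 10, and it was called under none of them. The level of the chromosome 17 cluster (8856 CPM) moved to 7977 CPM with counts regardless of strand and to 9884 CPM with totals without Mir122, and that of the miR-125 family (1215 CPM) to 1095 and 1356 CPM. These alternatives change the total by which every gene is divided, so the other sums shifted too. That of the chromosome 16 cluster (16409.5 CPM) shifted to 14787 and 18297 CPM, by less than its larger SD of 2721 CPM. The SDs of the chromosome 17 and miR-125 sums over the livers were small, at 147.9 and 15.1 CPM. Mir100 and Gm25927 changed places in the order of levels per kilobase, where the length of Gm25927 and not of Mirlet7e was used, and in replicate 1 alone. The ratios rest on 1 library per liver, and the counts of Mir125b-1 and Mir125b-2, as low as 220, limit their intervals. No paired analysis was possible because the series has 1 group.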
